A study of Homo sapiens with 4 samples.

Results

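MHC class I antigen presentation was followed through 9 genes chosen by name: the heavy chains HLA-B, HLA-C, HLA-E and HLA-F, the light chain B2M, the transporter subunits TAP1 and TAP2, and the immunoproteasome subunits PSMB8 and PSMB9. All 9 were found by symbol among the 60683 genes of the tables. The RNA came from HCT116, an established human colorectal carcinoma line that carried a pSin lentivirus and grew under puromycin. The virus was empty in the control group (2 libraries) and delivered the whole coding region of the forkhead gene FOXD2 in the other group (2 libraries), so both groups share the viral backbone and the drug. The labels do not state whether replicates were separate cultures or transductions, or whether a line was 1 clone; the p-values therefore reflect only how far these samples spread, and that spread may be technical.

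In this pathway, proteasomes cut proteins of the cytosol into peptides, and the pump formed by TAP1 and TAP2 moves the peptides into the endoplasmic reticulum. There they are loaded onto a heavy chain bound to B2M, and the complex travels to the cell surface, where CD8 T cells inspect it. HLA-B and HLA-C are classical, highly variable heavy chains, whereas HLA-E and HLA-F are nonclassical. Interferons raise most of these genes, and colorectal tumours can lose parts of the pathway.

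Promoters of 6 of the genes are shown, because they hold the elements through which class I transcription is classically controlled. The RefSeq promoter table (GRCh38.p14) gave windows for 8 of the 9 genes. Each stretch is the 250 bases before the transcription start, read 5′ to 3′ on the strand of the gene. Capitals mark matches on either strand, which may overlap, to the interferon-stimulated response element (GAAA, any 2 bases, GAAA), a shorter form of it (GAANNGAAA), the kappa B consensus, the cyclic AMP element core TGACG, and CCAAT. The shorter form was added after the HLA promoters had been read.
HLA-B, chr6:31357180-31357429, minus strand: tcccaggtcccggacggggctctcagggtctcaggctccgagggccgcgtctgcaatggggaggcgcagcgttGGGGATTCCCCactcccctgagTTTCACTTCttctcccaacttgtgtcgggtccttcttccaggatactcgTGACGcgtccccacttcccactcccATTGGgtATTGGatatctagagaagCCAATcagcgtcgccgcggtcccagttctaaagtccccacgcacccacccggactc
HLA-C, chr6:31272093-31272342, minus strand: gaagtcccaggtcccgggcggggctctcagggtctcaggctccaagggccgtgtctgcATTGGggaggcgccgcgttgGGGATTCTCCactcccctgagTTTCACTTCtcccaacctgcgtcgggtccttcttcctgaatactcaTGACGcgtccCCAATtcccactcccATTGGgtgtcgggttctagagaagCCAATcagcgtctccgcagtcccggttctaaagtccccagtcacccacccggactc
HLA-F, chr6:29723184-29723433, plus strand: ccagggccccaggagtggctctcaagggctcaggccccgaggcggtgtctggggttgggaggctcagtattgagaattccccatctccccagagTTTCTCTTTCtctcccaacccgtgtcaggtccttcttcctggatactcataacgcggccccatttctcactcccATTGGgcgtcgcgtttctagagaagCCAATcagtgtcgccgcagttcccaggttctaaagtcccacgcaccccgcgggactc
B2M, chr15:44711267-44711516, plus strand: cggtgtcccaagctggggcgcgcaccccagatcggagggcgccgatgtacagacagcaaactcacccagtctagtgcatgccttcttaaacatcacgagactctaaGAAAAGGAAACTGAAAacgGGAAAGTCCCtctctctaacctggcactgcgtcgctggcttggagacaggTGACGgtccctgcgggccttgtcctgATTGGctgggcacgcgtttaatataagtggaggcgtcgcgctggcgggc
TAP1, chr6:32853705-32853954, minus strand: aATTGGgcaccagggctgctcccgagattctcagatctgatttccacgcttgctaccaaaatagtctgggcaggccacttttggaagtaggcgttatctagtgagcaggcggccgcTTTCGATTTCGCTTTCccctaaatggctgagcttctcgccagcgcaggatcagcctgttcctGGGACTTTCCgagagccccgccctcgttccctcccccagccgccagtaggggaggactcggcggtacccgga
PSMB9, chr6:32853942-32854191, plus strand: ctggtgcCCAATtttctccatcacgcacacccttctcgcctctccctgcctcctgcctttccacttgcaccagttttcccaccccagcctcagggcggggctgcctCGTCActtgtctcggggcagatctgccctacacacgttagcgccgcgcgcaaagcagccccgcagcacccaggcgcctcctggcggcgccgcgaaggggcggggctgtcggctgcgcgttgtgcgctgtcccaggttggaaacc

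HLA-B and HLA-C had a common layout. From the far end came a kappa B match (177 bases before the start in HLA-B and 172 in HLA-C), the shorter interferon element (155 and 151) and TGACG (106 and 105). HLA-F held the full interferon element at 156 bases and no match to kappa B or TGACG. B2M held overlapping full elements at 144 and 138 bases, kappa B at 125 and TGACG at 75, and TAP1 held overlapping full elements at 134 and 128 bases. PSMB9 lies head to head with TAP1, with starts 488 bases apart, and its own stretch held no interferon element.

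Windows of 300 bases that also take in 50 bases past the start were searched in all genes. The 8 class I genes had 10 such windows, and a gene counted if any of its windows matched. The full interferon element was in 5 of the 8 class I genes (B2M, HLA-F, PSMB8, TAP1 and TAP2), or 5 of their 10 windows, and in 3.57% of all 35116 windows. The shorter form was in 4 of the genes (HLA-B, HLA-C, PSMB8 and TAP2) and 7.66% of windows, and kappa B in 4 (B2M, HLA-B, HLA-C and TAP1) and 11.3%. Because the shorter form was added after the HLA promoters had been read, its comparison with all windows tests nothing. The full element, kappa B, TGACG and CCAAT were searched as elements through which class I transcription is classically controlled. Their comparisons with all windows are therefore descriptions and no independent test. TGACG was in 6 genes and 24.6% of windows, CCAAT in 6 and 34.6%, and the gamma-activated site TTCNNNGAA in 2 (PSMB8 and TAP1) and 7.66%. The gamma-activated site of TAP1 lay in another window than the stretch printed above. The forkhead core TGTTTAC was in 0 of the 8 genes and 3.42% of windows. At so low a share, 0 matches in 10 windows says little, and only 300 bases per window were searched. Outside these 8 genes, PSMB10 held the full interferon element too, 21 bases before its start, and TAPBP at 20 and 14 bases. In FOXD2 cells PSMB10 fell (log2 fold change -0.59) and TAPBP rose (0.91). Whether the element had a part in any of the changes was not tested. A match describes letters only and is no measured binding site.

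The libraries held 14231338 to 15535817 counts. FOXD2 had 3.50 and 2.78 CPM in the controls and 526.5 and 479.1 CPM with FOXD2, where CPM is the count relative to a TMM-scaled library size. A count of 0 allows up to 3 counts, or 0.193 to 0.215 CPM, which covers counting error only. Of 8 markers of colorectal epithelium, 4 rose (EPCAM, KRT8, KRT18 and CDH1) and 1 fell (CDX2, log2 fold change -0.51, edgeR adjusted p = 0.0010). KRT20 did not pass (-0.97, adjusted p = 0.053), and CDX1 and VIL1 had 0 to 6 counts. Of 12 blood and immune cell markers, 6 (PTPRC, CD3D, CD3E, CD2, MS4A1 and NKG7) had 0 counts in every library, and the 12 summed to 0.644 and 0.729 CPM in the controls and 1.09 and 1.09 CPM with FOXD2. The 6 fibroblast markers summed to 9.51 and 11.2 CPM and to 32.2 and 33.4 CPM, nearly all of it COL1A1, with COL1A2, DCN and LUM at 0 in every library; the part of these markers in the class I result was not tested.

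Class I genes were higher in FOXD2 cells. By the quasi-likelihood test of edgeR, at an adjusted p under 0.05 over 14470 genes, 7 of the 9 genes rose and 0 fell; PSMB9 did not pass, and PSMB8 was too low to be tested. Of all genes tested 53.5% passed, 27.2% as rises and 26.4% as falls. The 9 genes were chosen with earlier results of these data known. The comparison with all genes is therefore a description and no independent test. Both FOXD2 libraries lay above both control libraries for each of the 9 genes, the untested PSMB8 included. The 8 tested ones compare with 38.9% of all tested genes that had this pattern. The median log2 fold change of the 8 tested genes was 0.63 (0.43 to 1.02), against 0.01 over all tested genes. The rises were moderate in size: the fold change of HLA-B exceeded that of 91.6% of tested genes, and that of TAP2 77.0%. In bulk RNA, fewer cells of a kind and less RNA per cell cannot be told apart.

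Per length, in TPM, the control cells held far more B2M than any other of these transcripts, with 504.9 ± 33.1 TPM (mean ± SD, n = 2 here and below). HLA-C followed with 136.2 ± 7.57 TPM, HLA-B with 74.2 ± 0.870 TPM and HLA-E with 47.7 ± 0.955 TPM. TAP1 (22.6 ± 0.0354 TPM) and TAP2 (22.1 ± 1.32 TPM) did not differ beyond their spread. HLA-F (9.79 ± 0.283 TPM), PSMB9 (2.03 ± 0.311 TPM) and PSMB8 (listed at 0.190 and 0 TPM) were the lowest. FOXD2 cells kept this order, and TAP1 (36.8 ± 1.12 TPM) and TAP2 (32.3 ± 4.62 TPM) again lay within their spread. The order depends on RSEM's effective length, which was 689 to 742 bases for HLA-B, 1283 to 1305 for HLA-C and 2257 to 2312 for HLA-E. In CPM, HLA-E lay above HLA-B, with means of 86.5 against 42.5 in the controls and 117.9 against 86.3 with FOXD2. Reads of HLA genes were counted against reference sequence, and how many reads of this line's own alleles went uncounted was not measured.

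**Figure D1:**
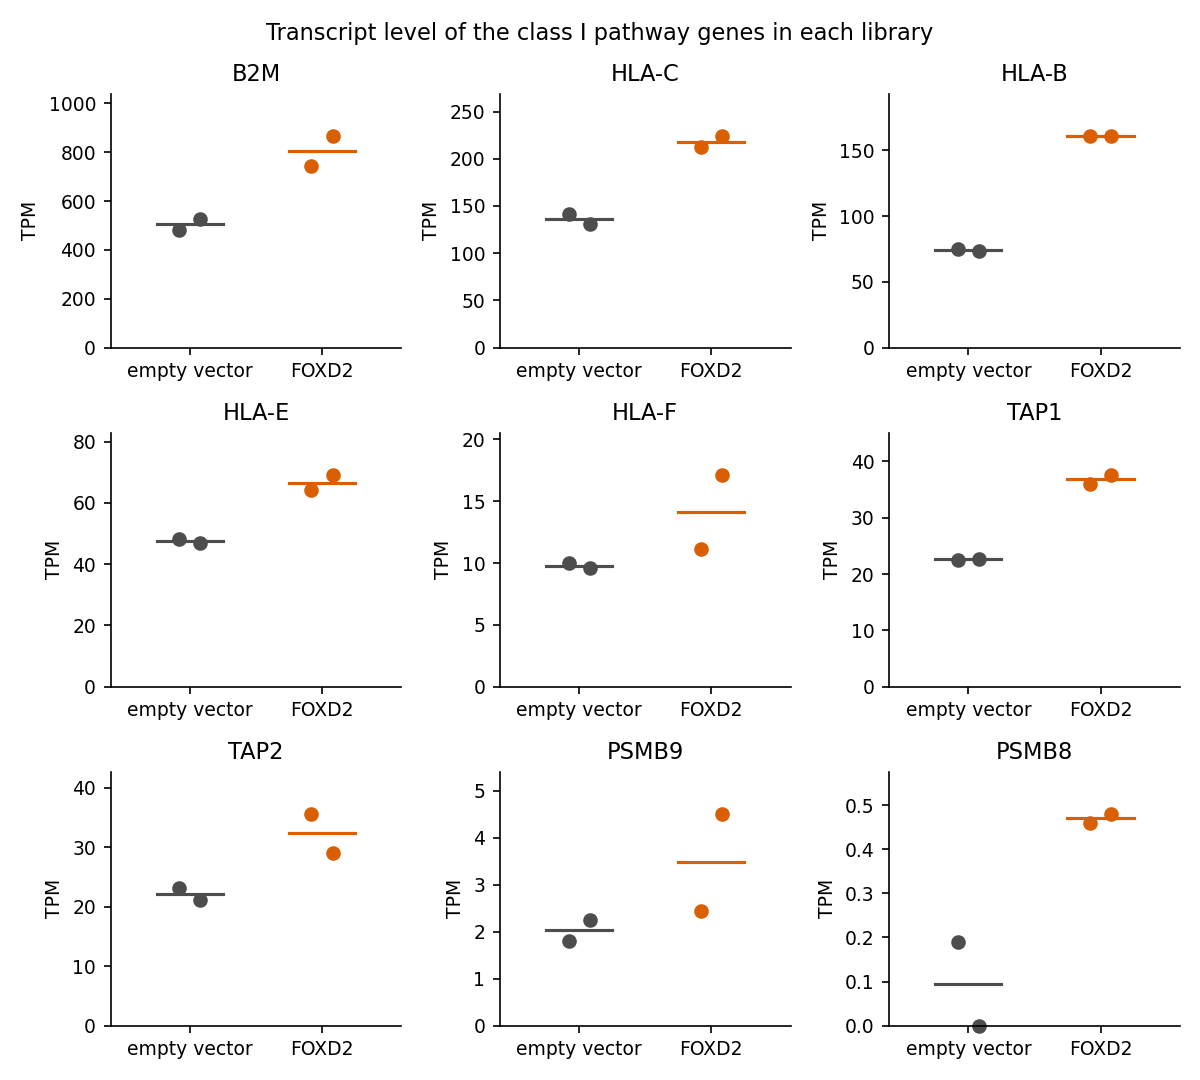
TPM of each of the 9 genes (vertical axis from 0, scaled per gene) in the 2 empty vector and 2 FOXD2 libraries; points are libraries and lines are group means. B2M has 481.4 and 528.3 TPM in the controls and 745.0 and 867.0 TPM with FOXD2, while PSMB8 is at most 0.480 TPM in any library.

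HLA-B had the largest rise of the 7. It had 41.1 and 43.9 CPM in the controls and 86.8 and 85.8 CPM with FOXD2. Each pair was tight and the groups lay far apart, a fold change of 2.03 (95% interval 1.82 to 2.26, edgeR adjusted p = 1.2e-16). HLA-C, which also engages inhibitory receptors of natural killer cells, had 144.6 and 136.5 CPM in the controls and 213.0 and 222.5 CPM with FOXD2. Its groups did not overlap either, with a fold change of 1.55 (95% interval 1.42 to 1.69, edgeR adjusted p = 9.3e-13). In GENCODE release 29 (GRCh38) the span of HLA-B on the minus strand of chromosome 6 (31269491 to 31357188) runs over HLA-C (31268749 to 31272130). The posterior SD that RSEM gave was 0 counts for HLA-B and at most 0.740 counts for HLA-C.

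HLA-E, which displays leader peptides of other heavy chains to natural killer cells, had 87.5 and 85.4 CPM in the controls and 114.9 and 120.9 CPM with FOXD2. The groups did not overlap, and the fold change was 1.36 (95% interval 1.24 to 1.501, edgeR adjusted p = 2.1e-07). It lies at 30489467 to 30494205 on the plus strand of chromosome 6.

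HLA-F was the scarcest of these 4 heavy chains, with 94 and 100 counts in the controls and 135 and 149 with FOXD2. The groups did not overlap, with a fold change of 1.41 (95% interval 1.11 to 1.79, edgeR adjusted p = 0.012). The call was lost without control 1 (adjusted p = 0.058), control 2 (0.075) or FOXD2 library 2 (0.12), with DESeq2 (0.13) and with limma on TPM (0.11). In TPM it had 9.99 and 9.59 in the controls and 11.15 and 17.1 with FOXD2, so that FOXD2 library 1 lay near the controls; RSEM's effective length for the gene was 994.5 bases in that library and 777.8 in the other. HLA-F (29722775 to 29738528, plus strand) is overlapped by the antisense gene HLA-F-AS1, which had 10 and 10 counts in the controls and 19 and 25 with FOXD2. The strand setting of the counting is not given in the sources used here, so both are uncertain.

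B2M, the light chain of class I molecules, lies apart from the others, on chromosome 15 (44711487 to 44718877, plus strand). It had 174.2 and 188.7 CPM in the controls and 262.6 and 298.5 CPM with FOXD2. The groups did not overlap, and the fold change was 1.55 (95% interval 1.41 to 1.69, edgeR adjusted p = 1.4e-11). Summed TPM of the 4 heavy chains was 57.1% and 49.4% of the TPM of B2M in the controls and 60.2% and 54.4% with FOXD2, and these ranges overlapped.

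The makeup of the 4 heavy chains was read as shares of their summed TPM, so the size of each share depends on the effective lengths given above. HLA-B made up 27.2% and 28.2% of it in the controls and 35.9% and 34.2% with FOXD2. HLA-C made up 51.5% and 50.1%, against 47.3% and 47.5%, and HLA-E 17.6% and 18.01%, against 14.3% and 14.7%. None of these 3 pairs of ranges overlapped. With 2 libraries against 2, an exact two-sided permutation test cannot go below 0.333, which was the p of each of them (0.429 after Benjamini-Hochberg adjustment over 9 ratios).

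Both subunits of the peptide pump rose. TAP1 had 39.7 and 38.9 CPM in the controls and 58.8 and 62.5 CPM with FOXD2, a fold change of 1.54 (95% interval 1.38 to 1.73, edgeR adjusted p = 4.9e-09). TAP2 had 68.9 and 72.5 CPM in the controls and 92.7 and 97.8 CPM with FOXD2, a fold change of 1.35 (95% interval 1.22 to 1.49, edgeR adjusted p = 1.5e-06). For neither gene did the groups overlap. TAP2 (32821833 to 32838780, minus strand) shares reads with a readthrough gene on its strand, AL669918.1, and had a posterior SD of 12.03 to 30.0 counts. That gene was given 35 and 0 counts in the controls and 40 and 66 with FOXD2. Summed with it, TAP2 had 71.4 and 72.5 CPM in the controls and 95.3 and 102.4 CPM with FOXD2, a ratio of means of 1.37.

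The immunoproteasome subunits PSMB8 and PSMB9 were scarce in both groups. PSMB8, which takes the place of PSMB5 in the core particle, had 2 and 0 counts in the controls and 6 and 6 with FOXD2. The ratio was 5.78, with an exact 95% interval of 1.29 to 53.1 for counting error only. PSMB9, which takes the place of PSMB6, had 16 and 22 counts in the controls and 24 and 41 with FOXD2. FOXD2 library 1 lay close to the controls and FOXD2 library 2 above them. The fold change was 1.65 (95% interval 0.991 to 2.75, edgeR adjusted p = 0.092) and did not pass, except without FOXD2 library 1 (adjusted p = 0.031). PSMB9 (32844136 to 32859585, plus strand) overlaps PSMB8 (32840717 to 32844703) and TAP1 (32845209 to 32853978), both on the minus strand, and counts of these genes could be split.

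PSMB10, the immunoproteasome subunit that takes the place of PSMB7, fell. It had 13.4 and 15.0 CPM in the controls and 9.64 and 9.29 CPM with FOXD2 (log2 fold change -0.59 with SE 0.14, edgeR adjusted p = 4.6e-04), and the groups did not overlap. In TPM, PSMB8 was 0.0889% and 0% of PSMB5 in the controls and 0.213% and 0.248% with FOXD2. PSMB9 was 0.782% and 0.980% of PSMB6, against 1.15% and 2.31%. PSMB10 was 14.5% and 16.1% of PSMB7, against 10.2% and 10.3%. The constitutive subunit exceeded its counterpart in every library. Each of these 3 ratios had the smallest exact permutation p that the design allows, 0.333 (adjusted 0.429).

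**Figure D2:**
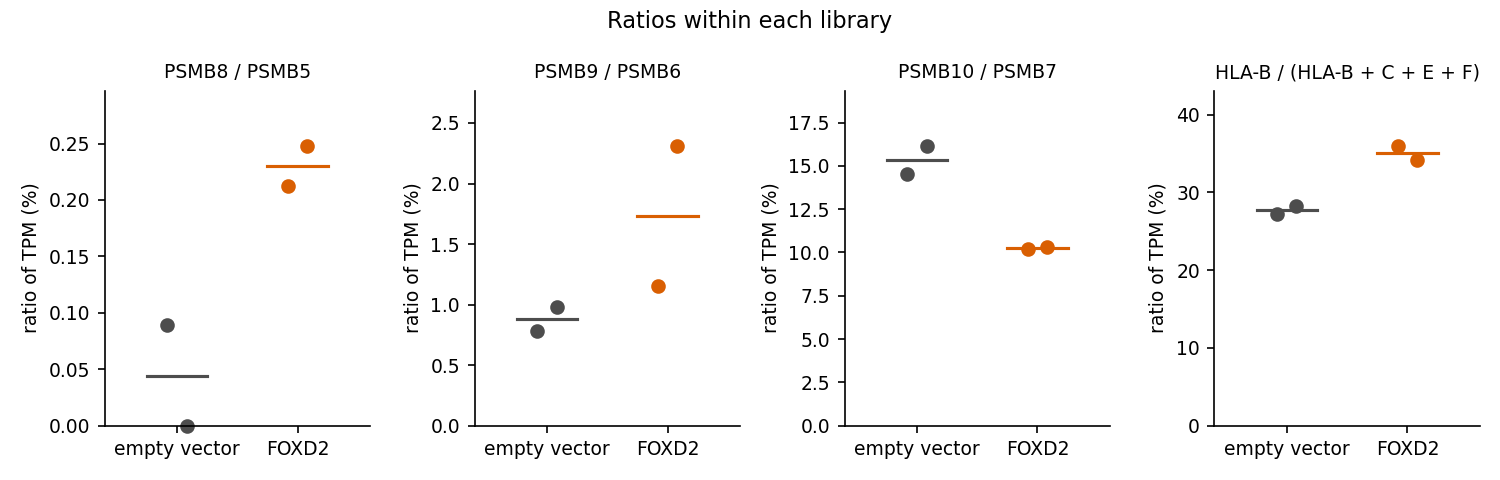
Ratios of TPM within each library, in percent (vertical axis from 0, scaled per panel), for 3 immunoproteasome subunits against the constitutive subunit they replace and for HLA-B against the 4 heavy chains; points are libraries and lines are group means. PSMB10 has 14.5% and 16.1% of PSMB7 in the controls and 10.2% and 10.3% with FOXD2, and HLA-B has 27.2% and 28.2% of the heavy chains against 35.9% and 34.2%.

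Other genes of the pathway were read from lists chosen by role, with earlier results of these data known. Over all tested genes 27.2% rose and 26.4% fell. The counts of each list below are descriptions to be read beside these shares. Of 14 subunits of the constitutive 20S core, 10 fell and 0 rose, with a median log2 fold change of -0.22. With 1 library left out the median ran from -0.26 (without FOXD2 library 1) to -0.18 (without FOXD2 library 2). With the replicate block 8 fell, and with limma on TPM 6 fell. PSMA2 averaged 116.9 ± 5.47 CPM without FOXD2 and 74.1 ± 0.0466 CPM with it (log2 fold change -0.66). PSMA7 (-0.36) and PSMA3 (-0.34) came next. PSMB6 fell (-0.21), a call lost without control 2 (adjusted p = 0.10) or FOXD2 library 2 (0.12). PSMB5 (-0.12) passed only without FOXD2 library 1 (adjusted p = 0.0041), and PSMB7 (-0.13) only without FOXD2 library 1 (adjusted p = 0.0022).

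Of 6 other proteasome genes 2 rose and 3 fell (median -0.07); 1 rose without control 1, control 2 or FOXD2 library 2, and the median was -0.02 with limma on TPM. PSME2, a subunit of the interferon-inducible proteasome activator, averaged 63.4 ± 2.21 CPM without FOXD2 and 92.6 ± 2.98 CPM with it (log2 fold change 0.55 with SE 0.07, edgeR adjusted p = 8.4e-09). Its partner PSME1 (0.23) rose, except without control 1 (adjusted p = 0.078), control 2 (0.073) or FOXD2 library 2 (0.075). Besides PSMB10, the assembly factor POMP (-0.30) and the activator subunit PSME3 (-0.21) fell, the latter not without control 2 (adjusted p = 0.079).

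Of 9 tested genes for peptide loading and trimming, 4 rose and 3 fell (median 0.17). The median was 0.06 without control 2 and 0.04 without FOXD2 library 2. TAPBP, or tapasin, which bridges the peptide pump and the heavy chain, had 54.9 and 52.5 CPM in the controls and 99.7 and 102.6 CPM with FOXD2 (log2 fold change 0.91 with SE 0.07, edgeR adjusted p = 1.2e-15), with no overlap. ERAP1, an aminopeptidase that trims peptides, averaged 8.18 ± 0.0426 CPM without FOXD2 and 21.4 ± 0.559 CPM with it (log2 fold change 1.39). Its relative ERAP2 had 13 and 25 counts in the controls and 44 and 44 with FOXD2, a rise (1.16) that passed in 8 of the 12 alternative fits. Over these fits its log2 fold change ran from 0.28 to 1.63, and in TPM its groups overlapped. The chaperone HSPA5 (-0.34), calnexin or CANX (-0.21) and the folding sensor UGGT1 (-0.19) fell. Of the 12 alternative fits HSPA5 passed in 12, CANX in 10 and UGGT1 in 10.

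**Figure D3:**
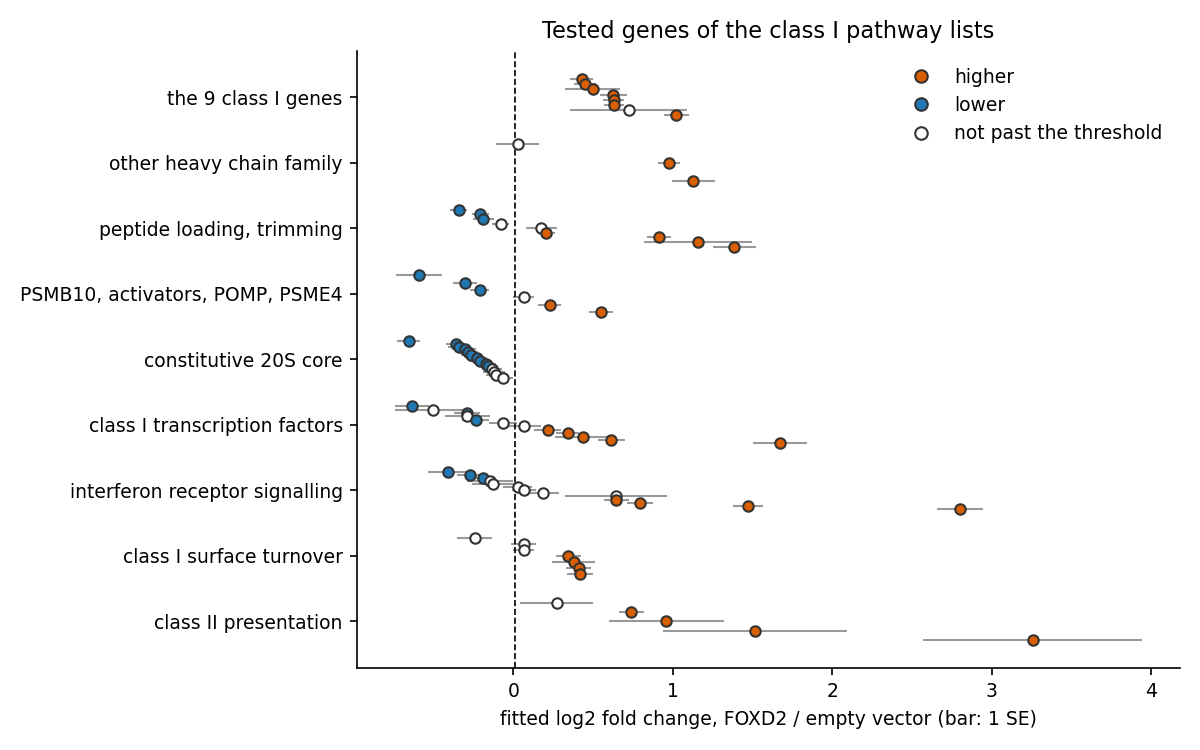
Fitted log2 fold changes of FOXD2 over empty vector (horizontal axis, bars of 1 SE) for the tested genes of each list; orange points rose, blue points fell, open points did not pass, and the dashed line is the median of all tested genes. The class I genes lie between 0.43 and 1.02, and the 14 core subunits between -0.66 and -0.06.

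Of 12 transcription factors that act on class I promoters, 5 rose and 3 fell (median 0.00), and 3 rose without control 1 and 3 without control 2; the median was 0.11 with limma on TPM. NLRC5, the class I transactivator, had 5.65 and 4.50 CPM in the controls and 13.7 and 18.7 CPM with FOXD2 (log2 fold change 1.67 with SE 0.17, edgeR adjusted p = 2.0e-11), with no overlap. RFX5, of the complex that binds the X box of these promoters, averaged 44.6 ± 0.616 CPM without FOXD2 and 68.3 ± 7.43 CPM with it (log2 fold change 0.61). IRF2 (0.44) rose, but passed in only 5 of the 12 alternative fits, with log2 fold changes of 0.20 to 0.64. IRF1, an interferon-inducible activator, did not pass, with 13.5 and 13.4 CPM in the controls and 10.5 and 11.5 CPM with FOXD2 (log2 fold change -0.29 with SE 0.14, edgeR adjusted p = 0.078, 95% interval -0.57 to -0.01). The 3 falls lay near the share of falls over all tested genes, 26.4%. Of the factors that fell, NFYB (-0.64) belongs to the complex that binds CCAAT. NFKB1 (-0.29) lost its call without control 2 (adjusted p = 0.063). CREB1 (-0.24) lost its call without control 1 (adjusted p = 0.23), and its direction turned on TPM (0.12 with a pseudocount of 1).

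Of 13 genes of interferon receptor signalling, 4 rose and 3 fell (median 0.07); 1 fell without control 1 and 2 without control 2 or FOXD2 library 1. The median was 0.13 without FOXD2 library 1, 0.11 without FOXD2 library 2, and 0.20 or 0.21 with limma on TPM. The 4 rises and 3 falls lay near the shares over all tested genes, 27.2% and 26.4%. IRF9 and STAT2, subunits of a factor that binds the interferon-stimulated response element, rose most. IRF9 averaged 4.62 ± 0.445 CPM without FOXD2 and 32.3 ± 4.40 CPM with it (log2 fold change 2.80 with SE 0.14, edgeR adjusted p = 1.1e-23). STAT2 averaged 19.5 ± 0.307 CPM without FOXD2 and 54.0 ± 4.84 CPM with it (log2 fold change 1.47). The receptor chain IFNAR2 (-0.41), the phosphatase PTPN2 (-0.27) and the kinase JAK1 (-0.19) fell. IFNAR2 lost its call without control 1 (adjusted p = 0.063), PTPN2 without control 2 (adjusted p = 0.19), and JAK1 without control 1 (adjusted p = 0.26) or FOXD2 library 1 (0.070). Of 10 interferon genes 9, IFNB1 and IFNG among them, had 0 counts in every library, and IFNE had 2 and 3 counts in the controls and 0 and 0 with FOXD2.

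Of 3 tested relatives of the class I heavy chains 2 rose. MR1, which presents microbial metabolites, averaged 9.43 ± 0.317 CPM without FOXD2 and 20.6 ± 2.47 CPM with it (log2 fold change 1.13 with SE 0.14, edgeR adjusted p = 3.3e-10), whereas HLA-G had 0 counts in every library. Of 7 tested genes listed here under class I surface turnover, 4 rose and 0 fell (median 0.34). Whether each of them acts on class I molecules in these cells was not tested. SPPL2A (0.42), TMEM127 (0.41) and SUSD6 (0.38) had the largest rises; TMEM127 and SUSD6 promote degradation of class I molecules. SUSD6 passed in only 6 of the 12 alternative fits, with log2 fold changes of 0.28 to 0.45.

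Of 14 class II genes only 5 were tested, and 4 rose (median log2 fold change 0.96, and 0.78 without FOXD2 library 2). HLA-DOB and HLA-DRA passed the count filter through their FOXD2 libraries, so genes this low could enter mainly as rises. With no filter 12 were tested and 4 rose. With the filter of 1 CPM 3 were tested and 2 rose. CIITA, the class II transactivator, had 0 and 4 counts in the controls and 0 and 0 with FOXD2. HLA-DOB, beside TAP2 and under the same readthrough gene, had 2 and 1 counts in the controls and 15 and 17 with FOXD2, a ratio of 10.3 (exact 95% interval 3.21 to 52.4, counting error only). HLA-DRA had 1 and 9 counts in the controls and 13 and 17 with FOXD2 and lost its call without control 1 (adjusted p = 0.43) or FOXD2 library 2 (0.18). HLA-DMB had 23 and 14 counts in the controls and 30 and 45 with FOXD2 and lost its call without control 2 (adjusted p = 0.27) or FOXD2 library 2 (0.33). The fourth was the lysosomal reductase IFI30, named here after its values were seen, with 47.1 and 47.2 CPM in the controls and 80.9 and 76.5 CPM with FOXD2.

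All of the 9 genes but B2M lie in the major histocompatibility region of chromosome 6. From GABBR1 to KIFC1, taken here as its bounds, 114 genes were tested, 7 of them class I genes of the 9. Of the other 107, 42.1% rose and 19.6% fell, with a median log2 fold change of 0.27. These 107 include antigen presentation genes of the lists above, such as TAPBP, HLA-DRA, HLA-DOB and HLA-DMB. They also include HLA-F-AS1, which overlaps HLA-F. Over the 715 tested genes of chromosome 6, 26.3% rose and 28.8% fell (median -0.04). Neighbouring genes are not independent, and these shares are a description.

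**Figure D4:**
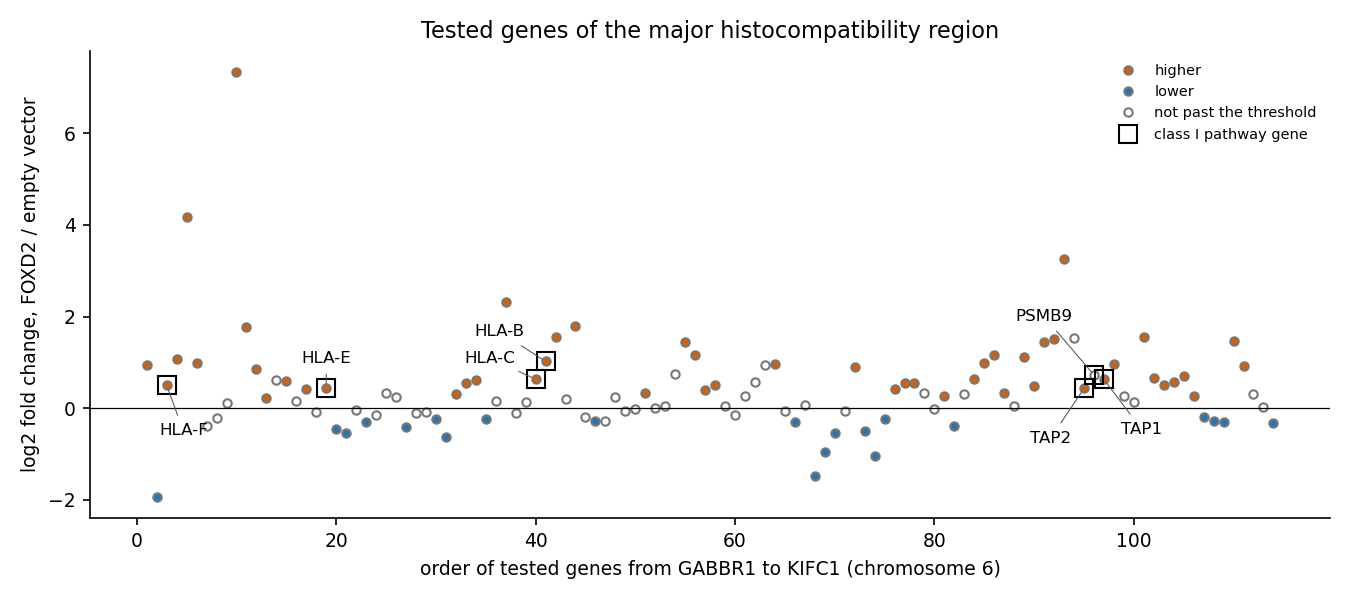
Log2 fold change of FOXD2 over empty vector (vertical axis) for the 114 tested genes from GABBR1 to KIFC1 in their order along chromosome 6 (horizontal axis); orange points rose, blue points fell, open points did not pass, and squares mark the class I genes. The 7 squares lie between 0.43 and 1.02, among 45 other rises and 21 falls.

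The genes outside all lists that were most like the class I genes over the 4 libraries were SH3D21, PIGH, KDELR3, PNISR and ATP6V0D1-DT. Likeness was the Euclidean distance between log2 CPM centred on the control mean and the median of the 8 tested genes, and these 5 lay at 0.0374 to 0.0492. The median itself was 0.47 in FOXD2 library 1 and 0.67 in FOXD2 library 2, on the log2 scale above the controls.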

How the data were processed

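PolyA RNA was sequenced after a directional library kit, per the labels' protocols. The submitters' processing notes name STAR 2.7.2b, RSEM 1.2.31 and GRCh38; annotation release and strand setting are not given in the sources used here. Per the file headers, the deposited tables hold RSEM expected counts, which divide reads that fit several genes, TPM, the posterior SD of each count and the effective length. Symbols were matched for 60370 of 60683 identifiers, and positions come from GENCODE release 29.

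Expected counts were rounded and compared with edgeR 4.0.16 in R 4.3.3 (TMM, filterByExpr, robust quasi-likelihood, Benjamini-Hochberg adjustment over all tested genes). The SE is the log2 fold change over the root of F. The procedure was run on simulated data in which a small set of genes was raised and none was lowered. In the real data 53.5% of genes passed, as rises and falls, and that run cannot check the fit under so wide a shift. The 9 genes and all lists were chosen with earlier results of these data known. Genes named are the 9, FOXD2, pathway genes listed by name, and the 3 largest rises and falls of each list; 2 listed genes are counted in their lists and not reported here. Alternatives were RLE factors, DESeq2 1.42.0, limma-voom and limma 3.58.1 on log2(TPM + 1) or log2(TPM + 0.1), no filter, a filter of 1 CPM, a replicate block, and each library left out, the single sample then being taken to vary as much as the other group. Replicates differed by more than counting noise (chi-square per degree of freedom 2.52 and 3.91).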

Additional observations from a re-analysis of the deposited data

How the results depend on the processing

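HLA-B (0.97 to 1.12), HLA-C (0.58 to 0.68), HLA-E (0.41 to 0.48), B2M (0.53 to 0.71), TAP1 (0.58 to 0.70) and TAP2 (0.39 to 0.54) kept their direction and call under all 12 alternatives run, with log2 fold changes in the ranges given. HLA-F passed in 6 of the 12 and PSMB9 in 1 (0.24 to 1.09). With no filter, PSMB8 was tested too and 7 of the 9 genes rose. With 1 library left out, 6 to 8 of the class I genes rose and 0 fell, and their median was 0.47 (without FOXD2 replicate 2) to 0.66. Over all genes, leaving out 1 library gave 3146 to 3579 higher and 3046 to 3650 lower. Limma on log2(TPM + 1) and log2(TPM + 0.1) called 2366 and 2322 genes lower, against 3816, and turned CREB1 to 0.12 and 0.13; the cause was not tested. With the same TPM fits 6 core subunits, 1 transcription factor gene and 1 interferon signalling gene fell, and 2 class II and 2 surface turnover genes rose. DESeq2 gave 3 rises of transcription factors, 1 fall in interferon signalling and 2 class II rises. Of the genes for peptide loading and trimming, 3 rose and 2 fell with the TPM fits, and 3 rose and 3 fell with DESeq2. Replicate numbers recur in both groups, but nothing states that they pair the samples, and the differences between replicates 1 and 2 correlated at -0.099 across genes. With the replicate block 3680 genes were higher and 3494 lower, 7 of the class I genes rose, and of the named genes JAK1 lost its call (adjusted p = 0.055).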
